A study of Mus musculus with 30 samples.

Results

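The genes described here encode the enzymes and transporters that carry glucose from the cell membrane to pyruvate, store and release glycogen, and run the tricarboxylic acid (TCA) cycle. They were taken from a list of 38 genes by gene symbol in the platform annotation, and 36 of them had a probe set among the 8252 genes measured. Gpi1 and Eno1 had none. Where a gene had several probe sets, as 10 of the 36 did, the brightest by its mean over the 30 arrays was used, and the others are given as a check. Expression was measured on 30 Affymetrix MG_U74Av2 arrays, which report the level of each transcript through a set of short probes. The tissue was left ventricle of C57BL/6 mice aged 2 months, and each RNA sample pooled 2 animals. The mice ate a soy-based or a casein-based diet and were either wild type or of the genotype labelled HCM. HCM commonly abbreviates hypertrophic cardiomyopathy, a thickening of the ventricular wall that mutations in genes of the contractile apparatus can cause, and the labels used here do not spell out the term or name a mutation. Each sex gave 3 arrays of HCM mice on soy and 4 arrays of every other combination of diet and genotype.

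Glycolysis turns glucose into pyruvate in the cytosol. Pyruvate becomes lactate or, through pyruvate dehydrogenase, the acetyl-CoA that citrate synthase feeds into the TCA cycle, whose reducing equivalents drive the respiratory chain. The adult heart takes most of its energy from fatty acids, and in hypertrophied hearts a shift toward glucose is often described. Several steps have isozymes with tissue preferences: hexokinase 2, muscle phosphofructokinase, Pgam2 and Eno3 are the forms typical of striated muscle, whereas hexokinase 1, the platelet form of phosphofructokinase, Aldoc and Eno2 prevail in other tissues such as brain.

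Values are log2 expression, so that a difference of 1 is a 2-fold change, and errors of differences are standard errors (SE) of the fit over all arrays. Differences were tested with limma, and a gene is called higher or lower where its Benjamini-Hochberg adjusted p over the 8252 genes is under 0.05. Ranges span the lowest to the highest array. Of the 36 genes, 26 had a mean of at least 9 on the log2 scale and are called the brighter genes below. The dimmer 10 were Slc2a1, Pfkp, Aldoc, Pgam1, Eno2, Gpd1, Gpd2, Idh1, Idh3b and Mdh1. The labels do not say whether pools came from separate litters or days, so p-values measure only the spread between these pooled samples.

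Some properties of the arrays bear on all comparisons. External control RNAs differed along diet and genotype: the Dap control lay between 7.18 and 8.07 on the 8 casein HCM arrays and between 4.03 and 4.70 on the other 22. The hybridization controls, as BioD minus BioC, split casein wild type into a set A (mean 1.07, replicates 1 and 2 in males and females) and a set B (mean -0.76, replicates 3 and 4). On soy, BioD minus BioC was -0.23 to 0.37 in wild type and 0.89 to 1.13 in HCM. Every difference of diet or genotype was therefore also a difference between sets of arrays, and the 2 cannot be told apart. Sets A and B have the same diet and genotype, yet 1 of the 36 genes was higher in A and 8 were lower, against 7.67% and 4.93% of all genes: Aldoc was higher, and Hk2, Pfkm, Pfkl, Ldhb, Gys1, Pdha1, Pdhb and Idh3g were lower. This count of 9 became 3 without female casein wild-type replicate 1 or 4 and 14 without replicate 2 of the male soy wild-type group. It was 5 without male casein wild-type replicate 2 or 4 and 4 without replicate 3 of that group. Replicate 2 of the male soy wild-type group stood apart: it was the lowest of the 8 soy wild-type arrays for 25 of the 26 brighter genes, whose median was 10.33 there and between 10.69 and 10.92 on the other 7, and the median of all 714 brighter genes on the array was also the lowest of the series, at 9.38. The RNA quality measure Actb 3′ minus 5′ averaged -0.04 in casein HCM, 0.22 in soy wild type, 0.30 in casein wild type and 0.27 in soy HCM. The same measure for Gapdh was 0.05 to 0.33 (mean 0.12) in casein wild type, above all soy wild-type arrays (-0.13 to 0.03), and averaged -0.10 in soy HCM and -0.04 in casein HCM. The part of these measures in the results was not tested. Without male soy wild-type replicate 2 the counts given below as higher and lower became 4 and 4 for HCM on soy, 6 and 15 for HCM on casein, 23 and 4 for diet in wild type and 17 and 8 for diet in HCM.

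**Figure D1:**
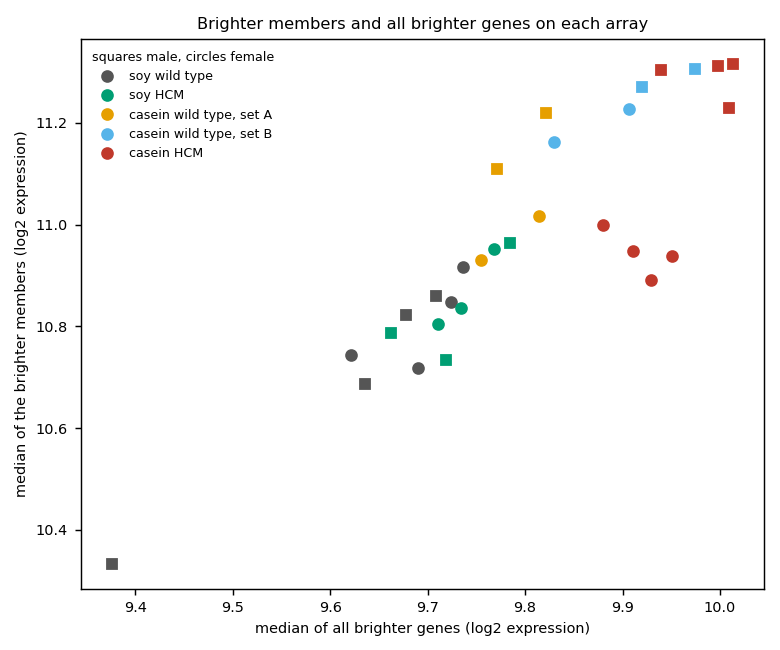
Each point is 1 array. The horizontal axis is the median log2 expression of all 714 genes with a mean of at least 9, and the vertical axis is the median log2 expression of the 26 brighter glycolysis, glycogen and TCA cycle genes. Male soy wild-type replicate 2 lies alone at the lower left (9.38 and 10.33), and the 4 female casein HCM arrays (10.89 to 10.999) lie below the 4 male ones (11.23 to 11.32).

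On soy, the question was how ventricles of HCM mice differed from wild-type ventricles. Among the 36 genes 5 were called higher and 4 lower, beside 12.3% and 12.7% of all genes, so the share was near that of the whole array. All brighter genes were higher in 22.3% and lower in 8.26% of cases, and the 26 brighter genes of these pathways in 5 and 1 cases. The higher ones were Ogdh, a subunit of the 2-oxoglutarate dehydrogenase complex of the TCA cycle, Idh3g, the regulatory gamma subunit of NAD-dependent isocitrate dehydrogenase, Pygm, the muscle glycogen phosphorylase that releases glucose units from glycogen, Hk2, and Cs, the citrate synthase that starts the cycle. Lower were Gpd2 and Gpd1, the mitochondrial and cytosolic glycerol 3-phosphate dehydrogenases that together form a shuttle for reducing equivalents, Mdh1, the cytosolic malate dehydrogenase, and Ldha, the lactate dehydrogenase subunit typical of skeletal muscle. None of the 6 upper and 7 lower glycolytic genes was called by limma at the adjusted threshold. The median difference of the 36 genes was 0.06, against -0.01 for all genes and 0.07 for all brighter genes.

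Ogdh ranged from 11.03 to 11.60 (median 11.39) on the soy wild-type arrays and from 11.61 to 11.95 (median 11.81) on the soy HCM arrays. The ranges did not overlap, and the difference was 0.44 ± 0.07 (adjusted p = 2.8e-05). It was 0.52 ± 0.09 in males and 0.36 ± 0.09 in females. Pygm also had separate ranges, 10.35 to 10.98 (median 10.86) in wild type and 11.05 to 11.29 (median 11.14) in HCM, a difference of 0.34 ± 0.07 (adjusted p = 0.0015). Gpd2 had separate ranges in the other direction, 5.52 to 6.32 (median 5.70) in wild type and 5.12 to 5.47 (median 5.33) in HCM, with a difference of -0.41 ± 0.10 (adjusted p = 0.00343). These 3 genes compare with 4.24% of all genes whose ranges lay apart with HCM higher and 4.07% with HCM lower. The other 6 called genes had overlapping ranges. Idh3g differed by 0.37 ± 0.10 (adjusted p = 0.00688), Cs by 0.24 ± 0.07 (0.0133) and Hk2 by 0.33 ± 0.11 (0.0306). Mdh1 differed by -0.35 ± 0.08 (0.00403), Gpd1 by -0.21 ± 0.06 (0.0161) and Ldha by -0.18 ± 0.07 (0.0495).

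With the set of arrays as a random block, Ogdh alone of the 36 was called. The Hk2 call was lost without male soy wild-type replicate 2 (0.24, adjusted p = 0.0593), female soy wild-type replicate 4, male soy HCM replicate 3, or female soy HCM replicate 2 or 3 (0.28 to 0.33), and that of Ldha when arrays were centred on their medians (-0.18, adjusted p = 0.0563).

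**Figure D2:**
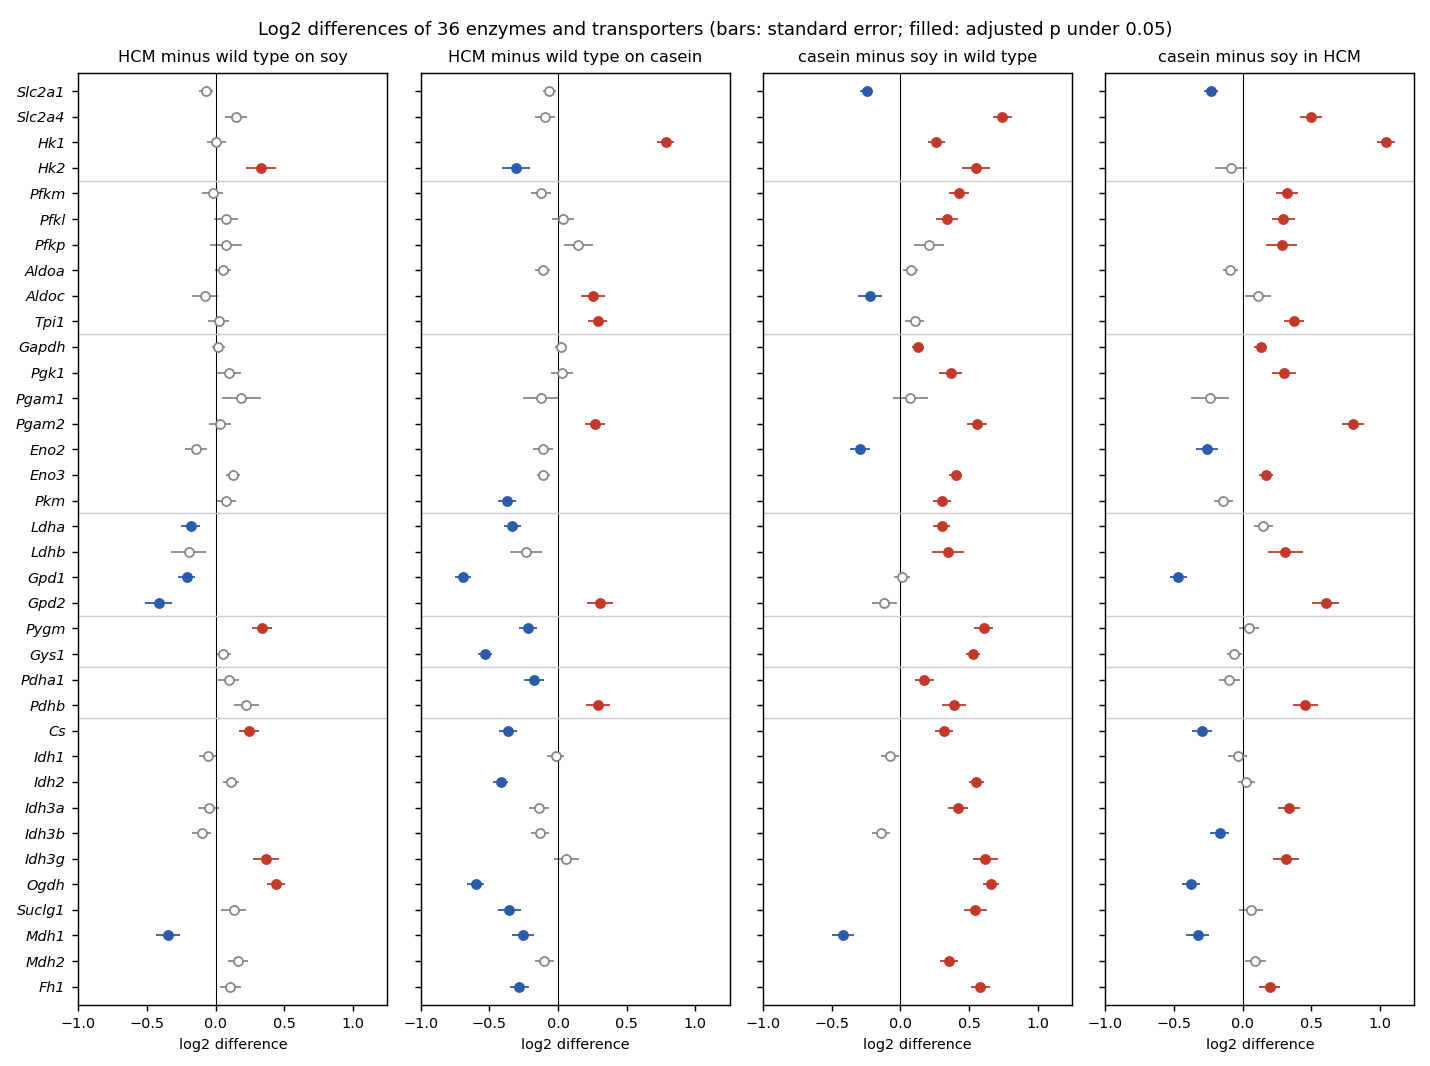
Log2 differences of the 36 genes in the 4 comparisons, with bars for the standard error. Filled points passed the adjusted threshold of 0.05 (red higher, blue lower), open points did not, and grey lines separate the functional groups. Casein minus soy in wild type has 24 red and 4 blue points, and HCM minus wild type on casein has 6 red and 13 blue points.

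On casein, 13 of the 36 genes were lower in HCM and 6 were higher, beside 22.7% and 26.9% of all genes and 28.9% and 35.6% of all brighter genes. Of the 11 TCA cycle genes 6 were lower and none higher, and both glycogen genes were lower. The share of calls that were higher was 31.6% in the deposited values. It was 20.8% with quantile normalization added (5 higher, 19 lower) and 23.1% with arrays centred on their medians (6 higher, 20 lower). Of all genes, 2218 were higher and 1874 lower as deposited. These counts were 1955 and 2129 with quantile normalization added, and 1791 and 2432 with arrays centred on their medians. The median difference of the 36 genes was -0.12, against 0.01 for all genes and 0.04 for all brighter genes.

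Among the transporters and hexokinases, Hk1 had the highest difference of the 36 genes. It ranged from 9.0 to 9.43 (median 9.31) in casein wild type and from 9.84 to 10.24 (median 10.09) in casein HCM, so that every HCM array lay above every wild-type array. The difference was 0.79 ± 0.06 (adjusted p = 6.25e-11), with 0.66 ± 0.09 in males and 0.92 ± 0.09 in females. Hk2, which phosphorylates glucose in striated muscle, moved the other way, with overlapping ranges and a difference of -0.31 ± 0.10 (adjusted p = 0.015). Against set A of the casein wild-type arrays alone, Hk2 differed by -0.11 (adjusted p = 0.477 in the fit without set B), and against set B alone by -0.51. The muscle glucose transporter Slc2a4 (GLUT4, -0.10 ± 0.07, adjusted p = 0.268) and the widely expressed transporter Slc2a1 (GLUT1, -0.06 ± 0.05, 0.279) were not called. Slc2a4 was called lower with quantile normalization added (-0.19, adjusted p = 0.0069), and Slc2a1 with arrays centred on their medians (-0.11, 0.0464).

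In glycolysis proper, 3 genes were higher and 1 was lower. Tpi1, which interconverts the 2 triose phosphates, was higher by 0.29 ± 0.07 (adjusted p = 0.00101), Pgam2, the muscle phosphoglycerate mutase, by 0.27 ± 0.07 (0.00338) and Aldoc, the brain-type aldolase, by 0.26 ± 0.09 (0.0165). Pkm, the pyruvate kinase of muscle and of proliferating cells, was lower, at -0.37 ± 0.07 (3.81e-05) and its ranges lay apart, 12.02 to 12.37 in wild type and 11.61 to 11.98 in HCM. The Pgam2 call was lost without set A (0.19, adjusted p = 0.0908). The 3 phosphofructokinase genes Pfkm, Pfkl and Pfkp, which encode the committed step, lay between -0.12 and 0.15 and none was called, though Pfkm was called lower with quantile normalization added (-0.23, adjusted p = 0.000662) and with arrays centred on their medians (-0.17, 0.0467). Aldoa, Gapdh, Pgk1, Pgam1, Eno2 and Eno3, the remaining genes from aldolase to enolase, lay between -0.12 and 0.03, also without a call. With quantile normalization added Gapdh turned lower (-0.24, adjusted p = 2.45e-06), Eno3 was called lower with both other scalings (-0.12 and -0.16), and Aldoa was called lower with arrays centred on their medians (-0.16, 0.0117).

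Of the 4 genes at the exit of glycolysis 2 were lower and 1 was higher. Gpd1 ranged from 8.71 to 9.09 (median 8.94) in casein wild type and from 8.12 to 8.34 (median 8.25) in casein HCM. All HCM arrays were below all wild-type arrays, and the difference was -0.69 ± 0.06 (adjusted p = 2.16e-10), with -0.66 ± 0.08 in males and -0.72 ± 0.08 in females. Its mitochondrial partner Gpd2 was higher by 0.30 ± 0.09 (0.00727), a call that was lost without set A (0.18, adjusted p = 0.154). Ldha was lower, at -0.33 ± 0.06 (8.61e-05) with separate ranges. Ldhb, the lactate dehydrogenase subunit typical of heart, was not called (-0.23 ± 0.12, adjusted p = 0.103), but was with quantile normalization added (-0.33, 0.00627) and with arrays centred on their medians (-0.28, 0.0481).

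Gys1, the muscle glycogen synthase, ranged from 9.62 to 10.06 (median 9.94) in casein wild type and from 9.24 to 9.51 (median 9.40) in casein HCM. The ranges lay apart, and the difference was -0.53 ± 0.05 (adjusted p = 2.71e-09). Pygm was lower, at -0.22 ± 0.07 (0.00914), a call that was lost without set B (-0.13, adjusted p = 0.206). The 2 subunits of the E1 component of pyruvate dehydrogenase differed in direction: Pdhb was higher by 0.29 ± 0.09 (0.00639) and Pdha1 lower, at -0.18 ± 0.07 (0.0411), and Pdhb lost its call with quantile normalization added (0.14, adjusted p = 0.0548).

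In the TCA cycle, Ogdh ranged from 11.79 to 12.14 (median 12.05) in casein wild type and from 11.25 to 11.58 (median 11.42) in casein HCM. No arrays overlapped, and the difference was -0.60 ± 0.06 (adjusted p = 5.39e-09). It was -0.70 against set A and -0.50 against set B. Idh2, the NADP-dependent mitochondrial isocitrate dehydrogenase, also had separate ranges, 11.68 to 12.0 (median 11.88) in wild type and 11.29 to 11.65 (median 11.47) in HCM, with a difference of -0.42 ± 0.05 (4.49e-07). Cs was lower, at -0.37 ± 0.07 (3.92e-05), with -0.36 against set A and -0.38 against set B. Suclg1, the alpha subunit of succinyl-CoA ligase, was lower, at -0.35 ± 0.08 (0.000909), Fh1, the fumarase, at -0.28 ± 0.07 (0.00152) and Mdh1 at -0.25 ± 0.08 (0.00863). Idh1, the cytosolic isocitrate dehydrogenase, the 3 subunits Idh3a, Idh3b and Idh3g, and the mitochondrial malate dehydrogenase Mdh2 lay between -0.14 and 0.06 and were not called. Idh3a was called lower with both other scalings (-0.23 and -0.19), and Idh3b with arrays centred on their medians (-0.18, adjusted p = 0.0246).

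In this comparison 1 gene, Hk1, had all HCM arrays above all wild-type arrays, and 6 genes had them below (Pkm, Ldha, Gpd1, Gys1, Idh2 and Ogdh). The shares among all genes were 8.79% and 6.3%. Modelling the array set as a random block left 11 of the 19 calls: Hk1 and Tpi1 higher, and Pkm, Ldha, Gpd1, Gys1, Cs, Idh2, Ogdh, Suclg1 and Fh1 lower. These 11 were also called in the same direction with both other scalings. As on soy, the block cannot take out a shift between sets, so the calls that stay do not separate HCM from array set.

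**Figure D3:**
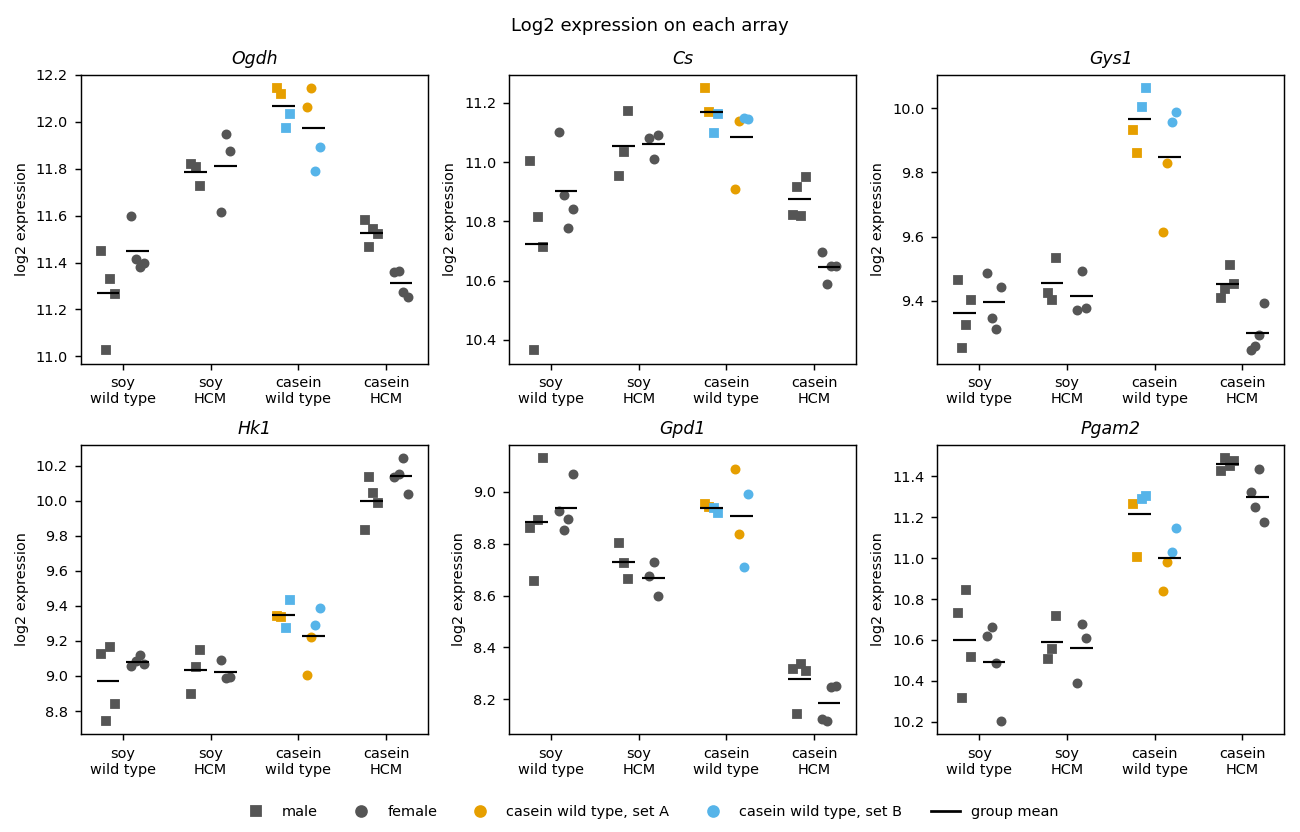
Log2 expression of Ogdh, Cs, Gys1, Hk1, Gpd1 and Pgam2 on every array, by diet and genotype, with squares for males, circles for females and lines for group means. Orange and light blue mark the casein wild-type arrays of set A and set B. Ogdh is above its soy wild-type range in soy HCM (11.61 to 11.95) and below its casein wild-type range in casein HCM (11.25 to 11.58).

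The HCM difference on casein was then tested against the HCM difference on soy. It differed for 17 of the 36 genes, lower on casein for 13 and higher for 4, beside 20.1% and 25% of all genes and 28.9% and 24.8% of all brighter genes. Of the calls, 23.5% were higher. This share was 25% with quantile normalization added (5 higher, 15 lower) and 11.1% with arrays centred on their medians (2 higher, 16 lower). Of all genes, 2061 were higher and 1657 lower as deposited. Their counts were 1850 and 1826 with quantile normalization added, and 1656 and 2068 with arrays centred on their medians. The 13 held 6 of the 11 TCA cycle genes (Cs, Idh2, Ogdh, Suclg1, Mdh2 and Fh1) and both glycogen genes, and no TCA cycle gene was among the 4, which were Hk1, Gpd2, Aldoc and Tpi1. The other lower ones were Hk2, Eno3, Pkm, Gpd1 and Pdha1. Slc2a4 and Idh3g, not called as deposited, were called lower with both other scalings.

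Ogdh had the largest such difference of the 36, -1.04 ± 0.09 (adjusted p = 6.04e-10): it was higher in HCM on soy and lower in HCM on casein. The other genes with both calls and the same turn were Cs (-0.61 ± 0.10, adjusted p = 1.03e-05), Pygm (-0.56 ± 0.10, 5.4e-05) and Hk2 (-0.64 ± 0.15, 0.00119). These 4 genes compare with 4.7% of all genes, and no arrays are shared by the 2 HCM comparisons. Under the random block for array sets Ogdh alone kept both HCM calls: Cs (adjusted p = 0.221), Pygm (0.0859) and Hk2 (0.269) lost the call on soy, and Pygm (0.0939) and Hk2 (0.107) also that on casein. Gpd2 turned the opposite way, from lower on soy to higher on casein (0.72 ± 0.14, 9.54e-05). It is a dim gene (mean 5.68), and under the random block it too lost the calls on soy (adjusted p = 0.121) and on casein (0.0829). For Gys1 (-0.59 ± 0.08, 6.22e-07) and Idh2 (-0.53 ± 0.08, 6.68e-06) there was no call on soy, and for Hk1 (0.78 ± 0.09, 1.42e-07) the difference on soy was 0.00 ± 0.07. Gpd1 was lower in HCM on both diets, and more so on casein (-0.48 ± 0.09, 5.85e-05). Fh1 differed by -0.39 ± 0.10 (0.00321), and it lost the call under the random block for array sets (adjusted p = 0.0726), as did 6 more of the 17.

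**Figure D4:**
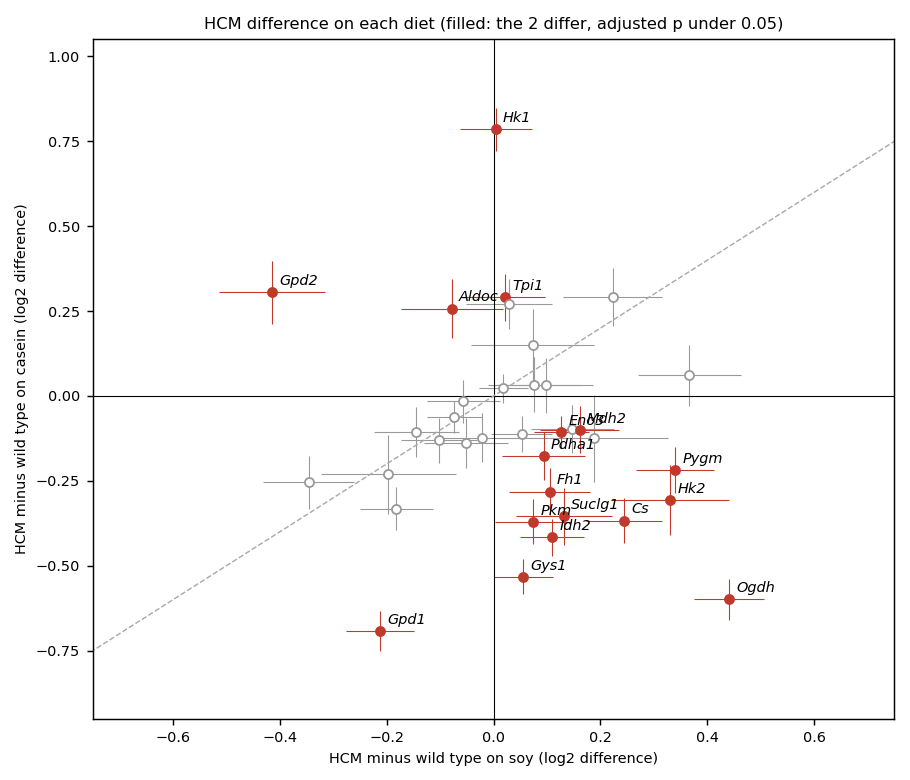
HCM minus wild type on soy (horizontal) against HCM minus wild type on casein (vertical), log2 differences with standard errors, 1 point per gene. Filled and named points are the 17 genes whose 2 differences differ at an adjusted p under 0.05, and the dashed line marks equal differences. Ogdh, Cs, Pygm and Hk2 lie at the lower right, Gpd2 at the upper left and Hk1 above the centre.

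Upstream sequences are shown for 5 of these 17 genes: the 4 whose HCM difference turned from higher on soy to lower on casein, and Hk1, which had the highest positive difference between the diets. Each is the 250 bases before an annotated transcription start (RefSeq, GRCm38.p6), read 5′ to 3′ on the strand of the gene, and for Ogdh and Hk1, which have several starts, the one farthest upstream was taken. The coordinates are chr11:6291347-6291596 for Ogdh, chr10:128337477-128337726 for Cs, chr19:6384158-6384407 for Pygm, chr6:82774455-82774704 for Hk2 and chr10:62379909-62380158 for Hk1. Capitals mark the motifs GGGCGG, the GC box bound by Sp1-family factors, and ACGTG, the core of the hypoxia response element, on either strand. The E-box CACGTG, which contains ACGTG and therefore overlaps it, and the extended nuclear receptor half-site AAGGTCA were searched as well, also on both strands, and occur in none of these 5 windows.
Ogdh: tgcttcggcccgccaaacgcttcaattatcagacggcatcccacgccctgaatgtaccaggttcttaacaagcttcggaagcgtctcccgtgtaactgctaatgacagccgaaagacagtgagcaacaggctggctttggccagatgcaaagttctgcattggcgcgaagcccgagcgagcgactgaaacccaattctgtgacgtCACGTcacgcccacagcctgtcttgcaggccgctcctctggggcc
Cs: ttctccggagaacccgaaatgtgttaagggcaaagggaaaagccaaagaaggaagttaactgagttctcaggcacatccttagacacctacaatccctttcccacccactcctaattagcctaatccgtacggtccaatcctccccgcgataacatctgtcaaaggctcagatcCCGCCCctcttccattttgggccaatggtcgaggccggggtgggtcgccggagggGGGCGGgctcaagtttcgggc
Pygm: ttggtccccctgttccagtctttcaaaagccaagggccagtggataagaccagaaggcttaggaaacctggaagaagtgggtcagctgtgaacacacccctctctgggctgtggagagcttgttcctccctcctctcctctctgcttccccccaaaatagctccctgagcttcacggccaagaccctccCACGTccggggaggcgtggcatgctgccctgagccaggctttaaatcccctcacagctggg
Hk2: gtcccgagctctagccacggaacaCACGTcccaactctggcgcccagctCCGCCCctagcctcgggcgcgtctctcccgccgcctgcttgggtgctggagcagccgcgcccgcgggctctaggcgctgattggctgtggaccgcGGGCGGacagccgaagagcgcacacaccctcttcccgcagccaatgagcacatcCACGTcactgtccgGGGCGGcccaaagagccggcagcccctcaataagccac
Hk1: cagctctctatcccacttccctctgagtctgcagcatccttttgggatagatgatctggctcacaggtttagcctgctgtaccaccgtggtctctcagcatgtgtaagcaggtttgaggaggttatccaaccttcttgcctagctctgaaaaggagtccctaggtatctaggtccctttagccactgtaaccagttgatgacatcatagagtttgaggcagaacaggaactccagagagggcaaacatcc

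Promoters were found for 33 of the 36 measured genes, the exceptions being Slc2a4, Gpd1 and Idh3a. GGGCGG occurred upstream of 19 of the 33 genes, counting any of their starts, and in 32.7% of all 32851 windows of this length. ACGTG occurred upstream of 14 genes and in 16.6% of all windows, CACGTG upstream of 3 (Pfkm, Ldha and, at other starts than the one shown, Ogdh) and in 6.02%, and AAGGTCA upstream of 0 and in 4.08%. A gene with several starts has more chances of a match than a single window, and a match is a description of the letters only. Of the genes shown, Hk2 holds 3 GC boxes and 2 hypoxia cores, Cs 2 GC boxes, Ogdh and Pygm 1 hypoxia core each, and Hk1 none of these motifs.

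In wild-type mice the casein diet was compared with soy. Of the 36 genes, 24 were higher on casein and 4 were lower, beside 21.6% and 25.4% of all genes. All 24 were among the 26 brighter ones, and of all brighter genes on the array 62.6% were higher and 9.94% lower, so brightness moved with the direction. The median difference of the 26 brighter genes was 0.40, against 0.28 for all brighter genes. The higher share of calls was 85.7% as deposited and 89.7% with arrays centred on their medians (26 higher, 3 lower). It was 70% with quantile normalization added, which left 14 higher and 6 lower and brought the median of all brighter genes to 0.06. Of all genes, 1780 were higher and 2095 lower as deposited. These counts were 2326 and 1502 with arrays centred on their medians, and 1787 and 1794 with quantile normalization added.

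Slc2a4 had the highest difference, 0.74 ± 0.07 (adjusted p = 3.35e-09): it ranged from 9.08 to 9.61 (median 9.43) on soy and from 9.91 to 10.31 (median 10.21) on casein. All casein arrays lay above all soy arrays, also for Eno3, Pygm, Gys1, Idh2, Ogdh and Fh1. These 7 genes compare with 6.01% of all genes with separate ranges and higher values on casein, and 0 of the 36 genes with 5.45% that lay apart with lower values. Slc2a1 was lower, at -0.24 ± 0.05 (0.000107), Hk2 higher by 0.55 ± 0.10 (7.73e-05) and Hk1 higher by 0.26 ± 0.06 (0.00112), the last without a call when quantile normalization was added (0.10, adjusted p = 0.104).

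Upper glycolysis had 2 genes higher, Pfkm (0.42 ± 0.07) and Pfkl (0.34 ± 0.08), and 1 lower, Aldoc (-0.22 ± 0.09). Pfkp, Aldoa and Tpi1 lay between 0.08 and 0.21 without a call. With quantile normalization added Aldoa (-0.17, adjusted p = 0.00525) and Tpi1 (-0.21, 0.000833) turned sign and were called lower, Pfkp was called higher (0.28, 0.0422), and the call of Aldoc was lost (-0.16, 0.128). With arrays centred on their medians Pfkp (0.26) and Aldoa (0.13) were called higher, and Aldoc was not called (-0.17). In lower glycolysis, Pgam2 was higher by 0.56 ± 0.07 (adjusted p = 6.36e-07), Eno3, the muscle enolase, by 0.40 ± 0.05 (9.03e-08), Pgk1, phosphoglycerate kinase, by 0.37 ± 0.08, Pkm by 0.31 ± 0.07 and Gapdh by 0.13 ± 0.04. Eno2, the neuronal enolase, was lower, at -0.29 ± 0.07 (0.00161), and Pgam1, the phosphoglycerate mutase of most other tissues, was not called (0.07 ± 0.13). With quantile normalization added Pgam2 alone of the 5 higher genes of lower glycolysis was still called (0.27), and Gapdh (-0.05) and Pkm (-0.05) took the other sign without a call. Ldha (0.30 ± 0.06) and Ldhb (0.34 ± 0.12) were higher as deposited, and neither was called with quantile normalization added (-0.04 and 0.07). Gpd1 (0.01 ± 0.06) and Gpd2 (-0.12 ± 0.09) were not called.

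Pygm ranged from 10.35 to 10.98 on soy and from 11.22 to 11.54 on casein, a difference of 0.61 ± 0.07 (adjusted p = 4.4e-08). Gys1 ranged from 9.25 to 9.49 on soy and from 9.62 to 10.06 on casein, a difference of 0.53 ± 0.05 (4.38e-09). Both glycogen genes were called higher with every scaling tried. Pdha1 (0.18 ± 0.07) and Pdhb (0.39 ± 0.09) were higher as deposited, but with quantile normalization added Pdha1 was lower (-0.15, adjusted p = 0.0208) and Pdhb was not called (0.12, 0.119).

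Of the 11 TCA cycle genes 8 were higher on casein in wild type, and 6 with quantile normalization added, when Cs (0.02) and Mdh2 (0.01) were no longer called. Ogdh was higher by 0.66 ± 0.06 (adjusted p = 1.34e-09), Idh3g by 0.62 ± 0.09 (2.19e-06), Fh1 by 0.58 ± 0.07 (1.4e-07), Idh2 by 0.55 ± 0.05 (5.09e-09), Suclg1 by 0.55 ± 0.08 (5.08e-06), Idh3a by 0.42 ± 0.07 (2.68e-05), Mdh2 by 0.35 ± 0.07 (0.000116) and Cs by 0.32 ± 0.07 (0.000261). Mdh1 was lower, at -0.42 ± 0.08 (7.83e-05), and Idh1 and Idh3b were not called. The cytosolic and the mitochondrial malate dehydrogenase thus differed in sign, and the Mdh1 call held with every scaling tried while that of Mdh2 did not. They also differed in brightness, with means of 6.59 (Mdh1) and 12.12 (Mdh2). Since brightness moved with the direction in this comparison, the contrast in sign cannot be told apart from it. With set A alone as the casein arrays 19 of the 36 genes were higher and 3 lower (17.5% and 19.2% of all genes), and with set B alone 25 and 4 (22.6% and 26.1%).

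In HCM mice, 16 of the 36 genes were higher on casein than on soy and 7 were lower, beside 32% and 30.1% of all genes and 53.6% and 20.9% of all brighter genes. This split depended on scaling more than any other. As deposited 69.6% of the calls were higher. With quantile normalization added 20.8% were, when 5 genes were higher and 19 lower. Of all genes, 2637 were higher and 2486 lower as deposited, and 2508 and 2547 with quantile normalization added. The genes called in the same direction with all 3 scalings were Slc2a4, Hk1, Pfkp, Pgam2 and Gpd2 higher, and Slc2a1, Eno2, Gpd1, Cs, Ogdh and Mdh1 lower. The random block for array sets left 14 calls, 9 higher and 5 lower.

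Hk1 again had the highest difference, 1.04 ± 0.07 (adjusted p = 3.21e-13). It ranged from 8.90 to 9.15 (median 9.02) in soy HCM and from 9.84 to 10.24 (median 10.09) in casein HCM, well apart. Pgam2 ranged from 10.39 to 10.72 (median 10.58) in soy HCM and from 11.18 to 11.49 (median 11.43) in casein HCM, a difference of 0.80 ± 0.08 (1.49e-09). Gpd2 was higher by 0.60 ± 0.10 (7.09e-06) and Slc2a4 by 0.50 ± 0.08 (3.02e-06), both with separate ranges. Gpd1 was lower, at -0.47 ± 0.06 (3.89e-07), Ogdh at -0.38 ± 0.07 (1.43e-05) and Cs at -0.30 ± 0.07 (0.000709), each with all casein arrays below all soy arrays. Slc2a1 (-0.23 ± 0.05), Mdh1 (-0.33 ± 0.08), Eno2 (-0.26 ± 0.08) and Idh3b (-0.17 ± 0.07) were also lower. In all, 8 genes had all casein HCM arrays above all soy HCM arrays (Slc2a4, Hk1, Tpi1, Pgam2, Gpd2, Pdhb, Idh3a and Idh3g) and 3 had them below, beside 20.6% and 17.2% of all genes.

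The remaining higher calls in HCM were Pfkm (0.32 ± 0.08), Pfkl (0.30 ± 0.09), Pfkp (0.28 ± 0.11), Tpi1 (0.37 ± 0.07), Gapdh (0.13 ± 0.05), Pgk1 (0.30 ± 0.09), Eno3 (0.17 ± 0.05), Ldhb (0.31 ± 0.13), Pdhb (0.46 ± 0.09), Idh3a (0.34 ± 0.08), Idh3g (0.31 ± 0.10) and Fh1 (0.20 ± 0.08). All of them but Pfkp lost the call or took the other sign with quantile normalization added: Gapdh (-0.20) and Eno3 (-0.10) were then called lower, and Fh1 was at -0.09 (adjusted p = 0.173). The Fh1 call was also lost without any 1 of 4 arrays, male soy HCM replicates 1 and 2 and male casein HCM replicates 2 and 3 (0.17 to 0.18). Gys1 (-0.06 ± 0.06), Pygm (0.05 ± 0.07), Hk2 (-0.09 ± 0.11), Idh2 (0.03 ± 0.06), Suclg1 (0.06 ± 0.09), Pdha1, Pkm, Ldha, Mdh2, Aldoa and Pgam1 were not called as deposited and were called lower with quantile normalization added.

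Set side by side, the 2 diet comparisons share no arrays with each other, but together they use the same arrays as the 2 HCM comparisons. The difference between the 2 diet effects is the same contrast as that between the 2 HCM effects, and thus no second result. Ogdh and Cs were higher on casein in wild type and lower on casein in HCM. Of all genes 3.22% had that pair of calls, and for Cs the wild-type call was lost with quantile normalization added. In both genotypes 13 genes were higher on casein as deposited (Slc2a4, Hk1, Pfkm, Pfkl, Gapdh, Pgk1, Pgam2, Eno3, Ldhb, Pdhb, Idh3a, Idh3g and Fh1) and 3 were lower (Slc2a1, Eno2 and Mdh1), beside 12.3% and 13.1% of all genes. All 13 were brighter genes, of which 41.7% on the whole array were higher in both. With all 3 scalings 2 of the 13, Slc2a4 and Pgam2, were called higher in both genotypes. All 3 of the lower ones, which are dimmer genes, were called lower.

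**Figure D5:**
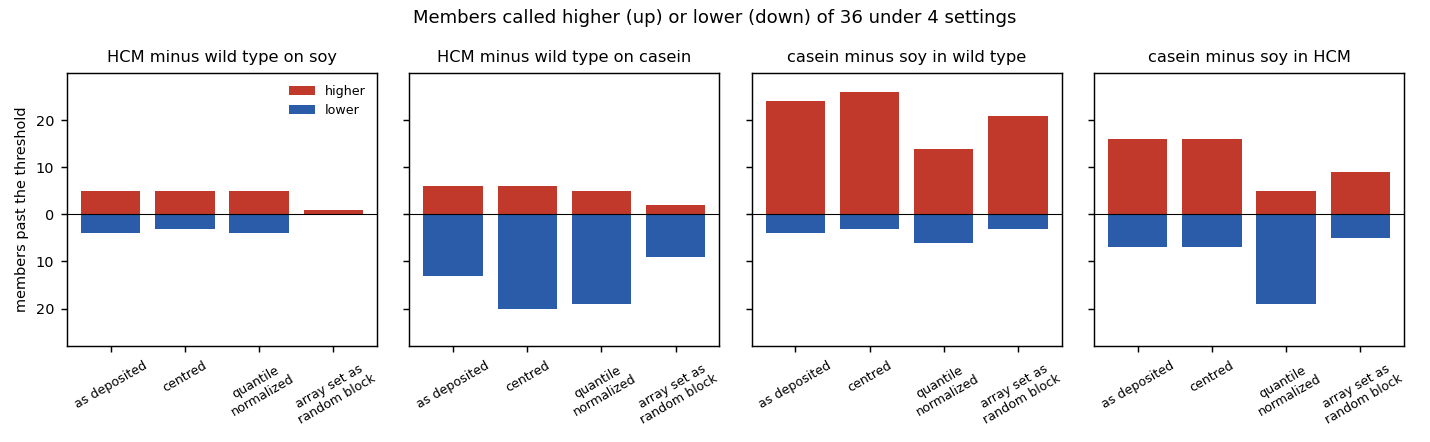
Number of the 36 genes past the adjusted threshold of 0.05, higher (up) and lower (down), in 4 comparisons under 4 settings: values as deposited, arrays centred on their medians, quantile normalization added, and the array set as a random block. Casein minus soy in HCM changes from 16 higher and 7 lower to 5 higher and 19 lower with quantile normalization added.

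Between females and males no gene of the 36 was called by limma in the mean over the 4 combinations, beside 0.267% of all genes, and 3 had an unadjusted p under 0.05. The differences lay between -0.13 (Pgam2) and 0.11. For the difference of the HCM effect between the sexes none was called either, among the 36 or among all genes (0%), and 1 of the 36 had an unadjusted p under 0.05. The sign was the same in both sexes for 27 of 36 genes for HCM on soy, 29 for HCM on casein, 34 for diet in wild type and 32 for diet in HCM. Within the sexes, HCM on soy had 4 genes higher and 2 lower in males (7.2% and 6.2% of all genes) and 1 higher and 0 lower in females (2.1% and 2.01%). HCM on casein had 3 higher and 8 lower in males (18.2% and 14.1%) and 4 higher and 15 lower in females (18.6% and 15%). Casein in wild type had 23 higher and 4 lower in males (19.5% and 20.5%) and 12 higher and 0 lower in females (11.2% and 13.7%), and casein in HCM had 17 and 5 in males (25.8% and 23.5%) and 6 and 4 in females (23% and 21.1%). Counts within a sex are no test of a difference between the sexes, and a difference of the diet effect between the sexes was not tested. Each array set holds as many males as females, and any shift between sets would therefore appear in both sexes. On the casein HCM arrays the median of the 26 brighter genes was 11.23 to 11.32 in males and 10.89 to 10.999 in females, and no single gene of the 36 was called between the sexes there, beside 0.485% of all genes (10 had an unadjusted p under 0.05). The counts of unadjusted p are given without the share of all genes, and the 36 genes share arrays. No difference between the sexes is read from them.

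Second probe sets gave a mixed picture. For Gpd1 the other probe set, with a mean of 6.23, was lower in HCM on casein too (-0.37, adjusted p = 4.5e-07) but not called on soy (-0.02, 0.78). The second Pkm probe set was lower in HCM on casein (-0.20, 0.0045), but was not called in the comparison of HCM effects between diets (-0.04, 0.73), where the brightest one was. The second Aldoa probe set was called lower in HCM on casein (-0.34, 0.00028), on casein in HCM (-0.34, 0.00044) and in the comparison of HCM effects (-0.45, 0.0012), where the brightest one was not. By their suffix, both Aldoa probe sets, both of Pkm, that of Gpd2 and the second of Gpd1 can match related transcripts, so their values are less certain. For Gapdh the brightest probe set was the middle one. The 5′ probe set was not called for diet (0.02 in wild type and 0.04 in HCM) and was higher in HCM on casein (0.17, 0.021). The 3′ one was called higher on casein in wild type (0.22, 0.00065) but not in HCM (0.10, 0.12). The second Pfkp probe set was called higher on casein in wild type (0.37, 0.023).

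Most other disagreements came from dim second probe sets. That of Slc2a4 (mean 4.87) was lower on casein in wild type (-0.35, adjusted p = 2.4e-05), on casein in HCM (-0.17, 0.025) and in HCM on soy (-0.23, 0.011). That of Idh3g (mean 4.44) was lower on casein in both genotypes (-0.40, 1.8e-05 and -0.38, 6e-05), higher in HCM on casein (0.20, 0.015) and not called in HCM on soy (0.17, 0.078). That of Idh3a (mean 3.29) was lower on casein in HCM (-0.21, 0.00044), in HCM on casein (-0.18, 0.0015) and in the comparison of HCM effects (-0.29, 0.00082), and not called for diet in wild type (0.08). That of Ldhb (mean 3.95) was lower in HCM on soy (-0.18, 0.045) and on casein (-0.19, 0.011) and not called for diet (-0.13 and -0.14). The second Hk2 probe set (mean 4.03) was called in no HCM comparison, nor for diet in wild type (0.12), and was higher on casein in HCM (0.29, 0.019). The calls of Slc2a4, Idh3g and Hk2, and those of Idh3a and Ldhb for diet, therefore rest on 1 probe set each.

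Other genes of the same pathways, not among the 36, were taken from a list of 82 of which 57 were measured. In HCM on soy 2 were higher (3.51%) and 8 lower (14%), beside 12.3% and 12.7% of all genes. The higher ones were Slc16a1, the monocarboxylate transporter MCT1 (0.57 ± 0.11), and Sdha, the flavoprotein subunit of succinate dehydrogenase (0.55 ± 0.14). The lowest were Fbp2, the muscle fructose bisphosphatase (-0.47 ± 0.09), Mpc1, a subunit of the mitochondrial pyruvate carrier (-0.43 ± 0.06), and Phkb, a regulatory subunit of phosphorylase kinase (-0.40 ± 0.12). In HCM on casein 15 were higher (26.3%) and 13 lower (22.8%), near the 26.9% and 22.7% of all genes. They ran from Slc16a1 (0.73 ± 0.10), Bpgm, the bisphosphoglycerate mutase best known from red cells (0.64 ± 0.09), and Tkt, the transketolase of the pentose phosphate pathway (0.58 ± 0.06), to Fbp2 (-0.42 ± 0.08), Gaa, the lysosomal alpha-glucosidase that degrades glycogen (-0.49 ± 0.05), and Sdhc, a membrane subunit of succinate dehydrogenase (-0.64 ± 0.08). Of the 14 measured glycogen genes on this list 7 were lower and 3 higher in this comparison.

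On casein against soy in wild type, 17 of these 57 genes were higher (29.8%) and 11 lower (19.3%), beside 21.6% and 25.4% of all genes. The extremes were Sdhb, the iron-sulfur subunit of succinate dehydrogenase (0.55 ± 0.06), Oxct1, which activates ketone bodies (0.53 ± 0.11), and Slc25a11, the oxoglutarate carrier of the malate-aspartate shuttle (0.48 ± 0.10), and at the other end Got2, the mitochondrial aspartate aminotransferase of that shuttle (-0.84 ± 0.08), G6pc, a glucose 6-phosphatase (-0.47 ± 0.07), and Tkt (-0.37 ± 0.06). In HCM 22 were higher (38.6%) and 13 lower (22.8%), beside 32% and 30.1%. Pck2, the mitochondrial phosphoenolpyruvate carboxykinase (1.0 ± 0.11), Sdhb (0.81 ± 0.07) and Dlst, the succinyltransferase subunit of the 2-oxoglutarate dehydrogenase complex (0.79 ± 0.08), were highest, and Phka1, the muscle form of a phosphorylase kinase subunit (-0.77 ± 0.06), Got2 (-0.76 ± 0.08) and Ugp2, which makes UDP-glucose for glycogen (-0.62 ± 0.11), were lowest. Dlst and Ogdh encode parts of 1 complex, and they took opposite signs on casein against soy in HCM and in HCM against wild type on casein (0.49 ± 0.08 for Dlst).

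Ventricular myocyte markers (contractile and calcium-handling genes such as Myh6 and Myl2), of which 10 of 11 were measured, also differed. Of the 10, 9 were higher and 0 lower in HCM on soy, 5 and 2 in HCM on casein, 10 and 0 on casein in wild type and 8 and 2 on casein in HCM. Marker counts stand beside 22.3% and 8.26%, 35.6% and 28.9%, 62.6% and 9.94%, and 53.6% and 20.9% of all brighter genes, and 12.3% and 12.7%, 26.9% and 22.7%, 21.6% and 25.4%, and 32% and 30.1% of all genes, in that order. In HCM on casein more myocyte markers were higher than lower, whereas more of the 36 genes were lower. The level of the myocyte markers, summed on the linear scale and given as log2, was 15.34 to 15.71 in soy wild type, 15.80 to 15.91 in soy HCM, 15.88 to 16.06 in casein wild type and 16.08 to 16.20 in casein HCM. Endothelial markers, all 8 measured, were higher in 4 cases and lower in 0 on casein in wild type, and lower in 4 and higher in 0 in HCM on casein, with summed levels of 10.82 to 11.54 in soy wild type, 11.52 to 11.69 in casein wild type and 11.12 to 11.48 in casein HCM. Of 7 adipocyte markers, 4 were lower and 0 higher in HCM on soy and 5 were higher and 0 lower in HCM on casein, within a summed level of 9.34 to 9.90 over all 4 combinations. Atrial markers were higher in 3 of 4 cases in HCM on casein (9.21 to 9.98 in wild type, 10.06 to 11.64 in HCM) and lower in 3 on casein in wild type (9.83 to 10.68 on soy). Skeletal muscle markers were higher in 2 and lower in 3 of 12 in HCM on casein. On casein in wild type 1 was higher and 5 were lower, and their summed level did not overlap, 11.05 to 11.34 on soy and 10.67 to 10.90 on casein. Linear sums weigh the brightest marker most, here Pvalb (mean 10.31 in soy wild type, 9.66 in casein wild type), while Myh1 was at 3.73 in soy wild type. Among the adipocyte markers that was Lep (8.67 in soy wild type), while Adipoq was at 4.43. The atrial markers were Myl7, Myl4, Sln and Nppa. The brightest, Nppa and Myl7, had means of 8.63 and 7.80 in casein wild type and 9.61 and 9.38 in casein HCM, while Sln was at 5.85 and 5.82. Whether this RNA came from atrial tissue or from the ventricle was not tested. Macrophage markers were lower in 4 and higher in 1 of 6 cases on casein in wild type. Measured were 6 fibroblast, 6 nerve and 4 red blood cell markers, and at most 4 per list were called in any of the 4 comparisons. Single markers still differed in either direction. In wild type the mean of Col3a1 was 8.47 on soy and 9.38 on casein, and that of Col1a2 was 9.16 and 8.43. No marker is listed at 0, since RMA gives every probe set a value. In bulk tissue, fewer cells of a type and less RNA per cell cannot be told apart, and the part of these markers in the results was not tested.

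Around their group means, the 26 brighter genes varied together: the median Pearson correlation between pairs was 0.62 over the 30 arrays, against 0.36 for pairs of all 714 brighter genes. Without male soy wild-type replicate 2 these were 0.45 and 0.21. The group means did not separate sets A and B of casein wild type, so the difference between these sets is part of this spread. Arrays are shared by all genes in these correlations, which describe the spread within groups and carry no test. The residual SD of the 36 genes had a median of 0.14 (0.07 to 0.28), the same as that of all brighter genes.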

How the data were processed

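Left-ventricular RNA was measured on 30 arrays, and the values the authors deposited are on the log2 scale, 1 per probe set and array. The submitters' processing notes name RMA and Affymetrix Expression Console, with versions not given in the sources used here. Gene names came from the platform annotation, and only those with 1 gene symbol were used. The 5 genes carried by sense control probe sets, Gapdh among them, were included, which gave 8252 genes. One limma model (R 4.3.3, limma 3.58.1) with a coefficient per group of sex, diet and genotype was fitted to all arrays, leaving 22 degrees of freedom (prior 6.15). All tests were two-sided, with Benjamini-Hochberg adjustment over 8252 genes within each comparison. Diet and genotype effects are means over both sexes. An array set is 1 diet and genotype, except that casein wild type was divided by the sign of BioD minus BioC (5′ probe sets). No scanner files were analysed, so there are no detection calls, and the number of arrays limits the precision.

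The genes and lists were chosen with earlier results of these data known. All 36 measured genes are named, and those given in full are the up to 5 largest called differences in each of the HCM comparisons, the diet comparisons and the comparison of HCM effects between diets, plus genes with an opposite second probe set. Of the other pathway genes, the 3 highest and 3 lowest called were named per comparison. Alternatives were testing every probe set, dropping the dimmest 40% of genes, quantile normalization, centring on medians, array weights, an intensity trend, only the groups compared, leaving out set A or set B or each array in turn, and the replicate number or the array set as a block (statmod 1.5.0). Same-numbered replicates deviated together (every correlation over 0.1) only between male and female casein wild type, where the numbers follow sets A and B, so the numbers were not taken to pair samples. In a test on simulated data for HCM minus wild type on casein over 8252 genes, 64% of 50 changes of 0.25 and 98% of 50 changes of 0.5 (log2) were recovered. The simulated noise was independent between genes and held no difference between array sets. These rates therefore check the fit and do not carry over to the data.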

Additional observations from a re-analysis of the deposited data

Results flagged for a closer look

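Of 90 groups of 4 arrays examined for the genes described in full, 12 held 1 array that stood apart from the other 3, where chance alone gives about 1 in 20. The groups are not independent, since all genes share the same arrays, so the count is no test against that rate. Pygm had 3 of them: 10.35 in male soy wild-type replicate 2 (the others 10.88 to 10.91), 11.28 in male casein wild-type replicate 2 (11.50 to 11.54) and 11.16 in female casein HCM replicate 4 (10.94 to 10.96). Gpd2 also had 3: 6.32 in male soy wild-type replicate 2 (5.68 to 5.77), 5.37 in male casein wild-type replicate 1 (5.79 to 5.87) and 6.16 in male casein HCM replicate 1 (5.86 to 5.87). Slc2a4 was 9.61 in female soy wild-type replicate 1 (9.41 to 9.44), and Ogdh was 11.60 in the same array (11.38 to 11.41). Pgam2 was 11.01 in male casein wild-type replicate 2 (11.26 to 11.30), and Gpd1 was 8.15 in male casein HCM replicate 2 (8.31 to 8.34). Cs was 10.91 in female casein wild-type replicate 1 (11.14 to 11.15), and Mdh1 was 6.73 in female casein wild-type replicate 3 (6.52 to 6.56).

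The HCM difference on casein departed from that on soy for 17 genes by the interaction test of limma. It was higher on casein for Hk1 (0.78), Gpd2 (0.72), Aldoc (0.33, adjusted p = 0.0356) and Tpi1 (0.27, adjusted p = 0.0328). It was lower for Ogdh (-1.04), Hk2 (-0.64), Cs (-0.61), Gys1 (-0.59), Pygm (-0.56), Idh2 (-0.53), Suclg1 (-0.49, adjusted p = 0.00207), Gpd1 (-0.48), Pkm (-0.44, 0.00051), Fh1 (-0.39), Pdha1 (-0.27, 0.0372), Mdh2 (-0.26, 0.0368) and Eno3 (-0.23, 0.00727). With arrays centred on their medians Aldoc (adjusted p = 0.0785) and Tpi1 (0.0803) were not called, and with quantile normalization added Eno3 (0.0584) and Mdh2 (0.122) were not.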

How the results depend on the processing

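The array set as a random block (consensus correlation 0.17) took HCM on soy from 9 to 1, HCM on casein from 19 to 11, diet in HCM from 23 to 14 and the comparison of HCM effects between diets from 17 to 10, and left diet in wild type at 24 of 28. Quantile normalization took diet in wild type to 20 (14 higher, 6 lower) and diet in HCM to 24 (5 higher, 19 lower). Leaving out each array in turn gave 7 to 11, 17 to 21, 19 to 25 and 14 to 19 for these 4, 25 to 29 for diet in wild type, 3 to 14 for set A minus set B, and 0 for both sex comparisons. With the replicate number as a block the counts were 8, 19, 22 and 19, and 28 for diet in wild type, and set A minus set B fell from 9 to 1, since the sets lie along the replicate numbers. Of the effects called as deposited in the genes described in full, 1 took the other sign: Fh1 for diet in HCM with quantile normalization added (-0.091). There Idh2 (0.03 as deposited, -0.37 then) and Pygm (0.05 and -0.30), not called as deposited, were called lower. The cause was not tested. Not run, because they leave the data as they are or remove the contrast, were only the groups compared for the comparisons that use every group, leaving out a casein wild-type set for comparisons without those arrays, and the set block or a set left out for set A minus set B. Without the dimmest 40% of genes, 31 of the 36 genes were tested. Dim genes, such as Eno2, Idh3b and Gpd2, have no detection call here.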
